A study of Rattus norvegicus with 8 samples.

Results

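The dual-specificity MAP kinase phosphatases described here are *Dusp1*, *Dusp2*, *Dusp4*, *Dusp5*, *Dusp6*, *Dusp7*, *Dusp10* and *Dusp16*, 8 genes taken by name. All probe sets annotated to exactly 1 of these symbols were used, which gave 10 of the 31042 probe sets of the array and 7 of its 14217 named genes. *Dusp1* had 2 probe sets, *Dusp6* had 3 and the others had 1 each. *Dusp16* is not among the genes listed for any probe set, so its transcript was not analysed here. The level of these transcripts was measured in a reporter population of peripheral blood mononuclear cells (PBMCs), a mixture of lymphocytes with fewer monocytes, taken from 2 healthy male Brown Norway rats (BN1 and BN2, about 180 days old). Wells of 500000 cells received 20% plasma for 6 h, and the 8 arrays cover the 4 plasmas with 1 array per donor. Normoxic control plasma was pooled from 8 male Sprague-Dawley rats raised in 21% oxygen. Plasma of male Sprague-Dawley rats after neonatal intermittent hypoxia (IH) was pooled from 5 rats for 5% IH and from 3 rats for 10% IH. Those rats had been exposed to 5% or 10% oxygen in repeated short cycles over 1 h daily on postnatal days 2 to 6. These plasma donors were adult (PD114, an age in postnatal days) and had fasted overnight. Autologous Brown Norway plasma was the fourth medium, and the labels of its arrays are not clear about which donor's plasma was used. It differs from the Sprague-Dawley plasmas in strain, in coming from the strain of the reporter cells, and in donor age (about 180 days against PD114). Fasting is not stated for it. In any difference from autologous plasma these factors cannot be told apart. Each plasma was pooled 1 time, so the replicate arrays of a group differ in the reporter donor and carry no spread between plasma donors or pools.

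MAP kinases are switched on when a kinase phosphorylates a threonine and a tyrosine of their activation loop, and the dual-specificity phosphatases switch them off by removing both phosphates. *Dusp1*, *Dusp2*, *Dusp4* and *Dusp5* encode nuclear enzymes that are made after stimulation, *Dusp6* and *Dusp7* encode cytoplasmic enzymes that prefer ERK, and *Dusp10* and *Dusp16* encode enzymes that act mainly on p38 and JNK. Several of them are transcribed in response to the kinases they shut off and so form a feedback loop, and in leukocytes DUSP1, which glucocorticoids induce, limits p38 signalling and cytokine output.

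In the RefSeq annotation of the GRCr8 assembly, *Dusp1* lies at chr10:17184853-17187646, *Dusp2* at chr3:135009636-135011821, *Dusp4* at chr16:64079893-64101396 and *Dusp5* at chr1:262543774-262557201. *Dusp6* lies at chr7:35979502-35983834, *Dusp7* at chr8:115888091-115895126, *Dusp10* at chr13:98145317-98183304 and *Dusp16* at chr4:169278118-169361508. The RefSeq promoter table holds 7 of the 8 genes, all but *Dusp4*, each as 300 bases from 250 before to 50 after an annotated start. The promoters of *Dusp6*, the member with the widest range over the 4 plasmas, and of *Dusp1* and *Dusp5*, which hold response elements of stimulus-induced genes, are given below 5′ to 3′ with the letters of the motifs found in capitals. All 3 lie on the plus strand, at chr7:35979354-35979653 for *Dusp6*, chr10:17184603-17184902 for *Dusp1* and chr1:262543524-262543823 for *Dusp5*.
Dusp6: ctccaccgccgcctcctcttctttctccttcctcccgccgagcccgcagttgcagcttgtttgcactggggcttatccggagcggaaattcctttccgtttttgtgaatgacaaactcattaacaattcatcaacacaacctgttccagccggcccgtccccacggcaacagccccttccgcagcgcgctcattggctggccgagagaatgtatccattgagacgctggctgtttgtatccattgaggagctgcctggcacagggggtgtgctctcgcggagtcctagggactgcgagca
Dusp1: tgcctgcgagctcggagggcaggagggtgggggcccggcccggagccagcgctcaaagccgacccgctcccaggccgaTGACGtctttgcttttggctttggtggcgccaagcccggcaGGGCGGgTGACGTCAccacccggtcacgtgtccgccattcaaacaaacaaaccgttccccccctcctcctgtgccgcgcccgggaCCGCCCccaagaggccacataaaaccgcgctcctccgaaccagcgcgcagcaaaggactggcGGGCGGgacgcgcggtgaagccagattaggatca
Dusp5: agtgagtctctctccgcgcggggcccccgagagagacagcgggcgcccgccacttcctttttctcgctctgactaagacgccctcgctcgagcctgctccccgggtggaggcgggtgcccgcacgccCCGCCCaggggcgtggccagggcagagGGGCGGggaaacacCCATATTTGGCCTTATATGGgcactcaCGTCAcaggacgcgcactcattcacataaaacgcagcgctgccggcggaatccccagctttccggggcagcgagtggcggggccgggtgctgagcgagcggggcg

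Positions are counted from the first transcribed base of the table, with no base 0. For *Dusp6* and *Dusp10* that base lies inside the gene span given above. Part of the *Dusp6* window and all of the *Dusp10* window are therefore within the annotated gene. The motifs searched, on both strands, were the full cAMP response element TGACGTCA, which 1.83% of all 33469 rat promoters of this length hold, its core TGACG (21.2%), the AP-1 site TGANTCA (7.33%), the GC box GGGCGG (33.1%), the CArG box of serum response factor (1.64%), the NF-kB site (7.51%) and the TATA element TATAAA (14.2%). *Dusp1* held a full cAMP response element with its first base at -124, which includes the cores at -124 and -121, a further core at -172, and GC boxes at -131, -46 and 17. *Dusp5* held CArG boxes at -82 and -72, a core at -55 and GC boxes at -123 and -96. *Dusp6* held none of the letters searched, which says no more than that they are not in this window. Of the promoters not shown, *Dusp2* held a core at -9 and GC boxes at -140 and -108. *Dusp7* held overlapping GC boxes at -156 and -152, *Dusp10* held a GC box at -96, and *Dusp16* held a core at -70 with GC boxes at -184, -152 and -145. A match is a run of letters, and binding was not measured.

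Levels are log2 values normalized by the authors, and a difference between plasmas is a difference of group means on that scale (a log2 ratio). Where a gene had several probe sets, the one with the highest mean level stood for it. The criterion of the study asks for more than a 1.2-fold difference, up or down, and for a Rank Product p below 0.05, a rank statistic over the ratios between arrays. With all arrays the Rank Product p removed no probe set in any comparison. From control to 5% IH plasma, 964 probe sets passed the fold threshold alone and 964 met the criterion as coded here. From control to 10% IH plasma, 2157 passed the fold threshold alone and 2157 met the criterion. A call by the criterion was in both no more than a difference of over 1.2-fold. For the latter comparison the published count is lower under the same thresholds, and why was not tested. A call near the threshold there may therefore not stand in the published list. limma, a linear model across all probe sets, was run beside the criterion. The array medians were 5.53 to 5.56, so that no array stood apart in scale. Markers of T cells (7 of 7 measured) summed to 9965 and 10467 linear units with autologous plasma and to 10020 to 10978 with Sprague-Dawley plasma. Those of monocytes (5 measured) summed to 373 and 619 with autologous plasma and to 2981 to 4106 with Sprague-Dawley plasma.

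*Dusp6*, the cytoplasmic ERK phosphatase, was the member that differed most between plasmas, and it was higher with each of the Sprague-Dawley plasmas than with autologous plasma. With autologous plasma its brightest probe set (1377064_at) stood at a log2 level of 6.55 in BN1 and 6.92 in BN2. With control plasma the levels were 7.99 and 8.35, with 5% IH plasma 8.02 and 8.42, and with 10% IH plasma 7.94 and 8.05. All 6 arrays with Sprague-Dawley plasma lay above both autologous arrays, and BN2 was the higher donor with every plasma. The log2 ratio of control to autologous plasma was 1.43 (SE 0.178, 95% confidence interval 1.03 to 1.84), a 2.70-fold difference, with 1.44 in BN1 and 1.43 in BN2 (limma adjusted p = 0.00346). With 5% IH plasma the ratio was 1.48, or 2.80-fold (1.46 in BN1 and 1.50 in BN2, limma adjusted p = 0.00234). With 10% IH plasma it was 1.26, or 2.39-fold (1.39 and 1.13, limma adjusted p = 0.0085). The call by limma did not depend on a single array with 5% IH plasma, where the adjusted p reached at most 0.0254. It was lost for control plasma without the control array of BN2 (ratio 1.26, limma adjusted p = 0.0510), and for 10% IH plasma without the 10% IH array of BN1 (adjusted p = 0.0606), the 10% IH array of BN2 (adjusted p = 0.0506) or the autologous array of BN1 (adjusted p = 0.0736).

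The other *Dusp6* probe sets moved in the same direction by smaller amounts. Probe set 1387024_at read 6.49 and 7.01 with autologous plasma, 7.68 and 7.98 with control, 7.78 and 8.03 with 5% IH and 7.72 and 7.87 with 10% IH plasma. Its log2 ratios to autologous plasma were 1.08, 1.15 and 1.05 for control, 5% IH and 10% IH (limma adjusted p = 0.018, 0.0108 and 0.0255). Probe set 1382778_at read 5.15 and 5.20 with autologous plasma, 5.78 and 5.93 with control, 5.75 and 6.14 with 5% IH and 5.63 and 5.95 with 10% IH plasma. Its ratios of 0.68, 0.77 and 0.62 met the study's criterion, and limma called that of 5% IH plasma (adjusted p = 0.037) but not those of control (adjusted p = 0.0701) and 10% IH plasma (adjusted p = 0.136). Over the 8 arrays, which share the donors and plasmas, the probe sets correlated with each other at r = 0.942 to 0.989.

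**Figure D1:**
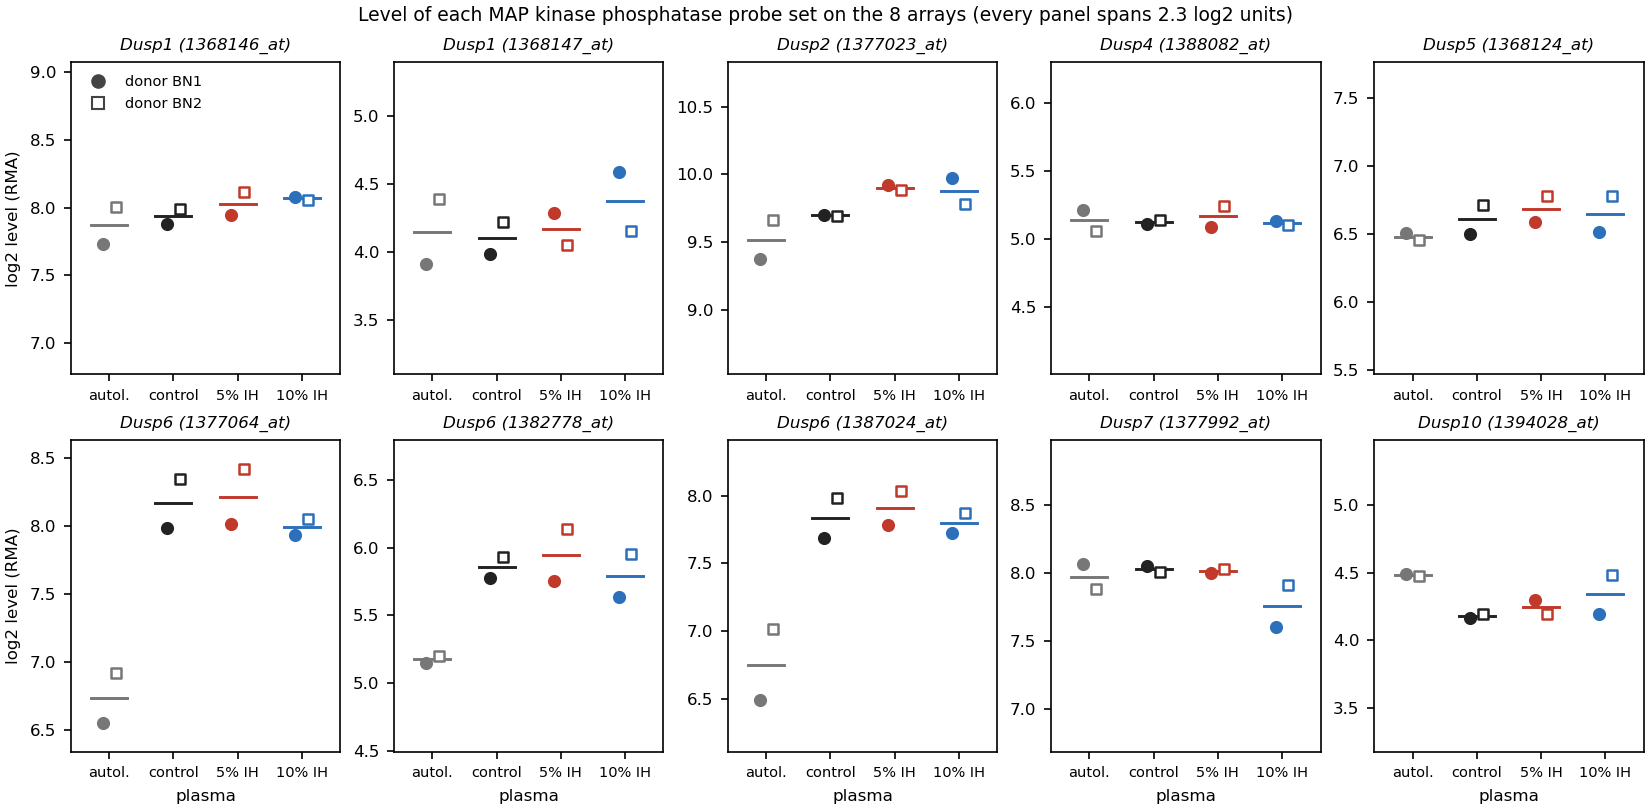
Log2 level (y axis) of each probe set of the MAP kinase phosphatases by plasma (x axis), with BN1 as filled circles, BN2 as open squares and the mean of the 2 arrays as a line. The 3 *Dusp6* probe sets are the ones in which both autologous arrays sit below all 6 others by a wide margin, and *Dusp7* is lowest in the 10% IH array of BN1 (7.60).

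The monocyte markers moved with *Dusp6*. From autologous to control plasma, *Cd14*, the lipopolysaccharide co-receptor, was higher by 5.28 on the log2 scale, *Csf1r*, the receptor for macrophage colony-stimulating factor, by 2.89, *Lyz2* by 2.45, *Itgam* by 2.08 and *Cd68* by 0.96. The control sum of these markers was 6.61 times the autologous sum, while for T cell markers it was 1.01 times. All 5 monocyte markers passed limma in each comparison with autologous plasma, beside 2.44%, 2.75% and 1.81% of all genes for control, 5% IH and 10% IH plasma. Of these calls, that of *Cd68* was lost without the control array of BN2 (limma adjusted p = 0.0841) or, for 5% IH plasma, without the 5% IH array of BN2 (adjusted p = 0.0559). The autologous array of BN2, with the higher *Dusp6* level of the pair, also had the higher monocyte sum. The part of monocyte content in the *Dusp6* difference was not tested, and in these bulk cultures fewer cells of a type and less RNA per cell cannot be told apart. Markers of NK cells (5 of 5 measured) summed to 2268 and 2390 with autologous plasma and 2096 to 2233 with Sprague-Dawley plasma, and those of granulocytes (3 of 5) to 93.0 and 156 and to 116 to 160.

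**Figure D2:**
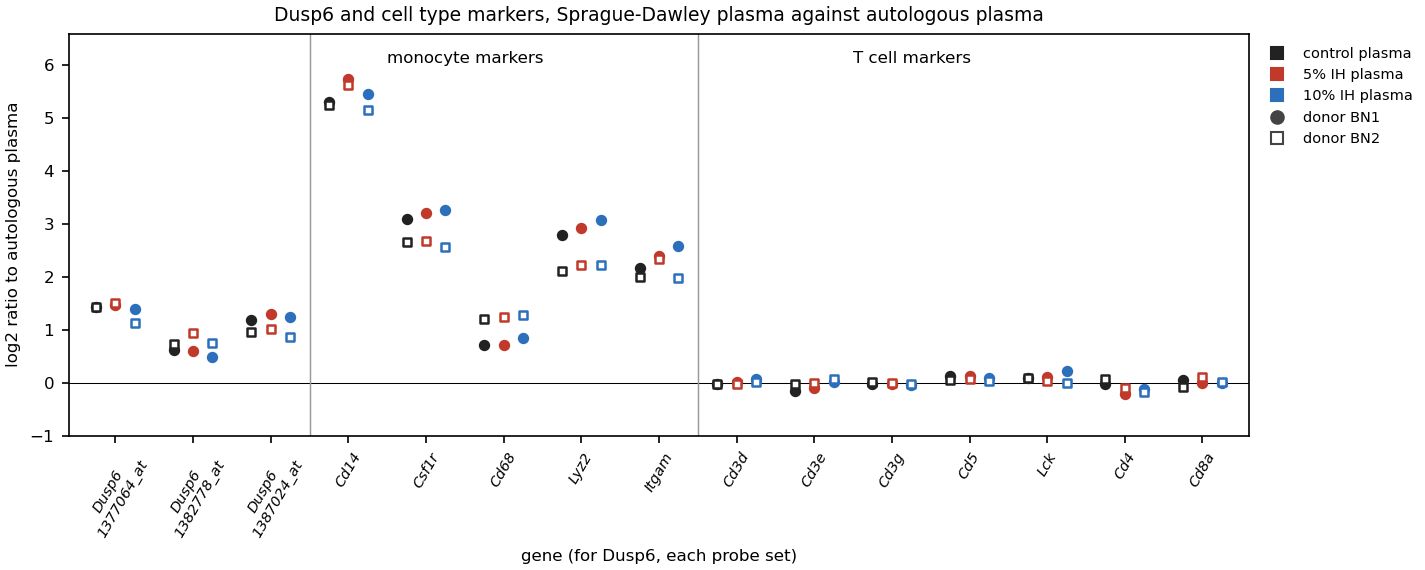
Log2 ratio to autologous plasma within each donor (y axis) for the 3 *Dusp6* probe sets, 5 monocyte markers and 7 T cell markers (x axis), coloured by Sprague-Dawley plasma, with BN1 as filled circles and BN2 as open squares. The *Dusp6* ratios of the brightest probe set run from 1.13 to 1.50, *Cd14* lies above 5 and the T cell markers lie near 0.

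Genes whose levels followed *Dusp6* were sought among 882 probe sets of 1 symbol with a range of group means of at least 0.5. The closest over the 8 arrays were *Mgst1* (Pearson r = 0.996), *S100a4* (0.994), *Tbxas1* (0.993), *Mitf* (0.991) and *Tlr8* (0.990). These correlations rest mainly on the gap between autologous and other arrays, and over the 6 arrays with Sprague-Dawley plasma they were 0.982, 0.956, 0.896, 0.903 and 0.925. For *Dusp2*, which had the next widest range, 885 such probe sets were compared. The leading genes were *Txnrd1*, thioredoxin reductase (r = 0.955 over 8 arrays, 0.891 over 6), *Pir* (0.943 and 0.948) and *Sdc4* (0.941 and 0.806). Next came *Cybb*, the catalytic subunit of the phagocyte NADPH oxidase (0.938 and 0.808), and *Serp1* (0.937 and 0.791). The arrays share donors and plasmas, and the genes were picked for the correlation, so these values are a description.

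Counted by gene, 2 of the 7 measured phosphatases met the criterion from autologous to control plasma, *Dusp6* upward and *Dusp10* downward, beside 10.3% of all genes in either direction. By limma 1 of 7 was called, *Dusp6*, beside 2.44% of all genes. *Dusp10*, a p38 and JNK phosphatase read on a dim probe set, stood at 4.49 and 4.47 with autologous plasma, 4.17 and 4.19 with control, 4.30 and 4.19 with 5% IH and 4.20 and 4.48 with 10% IH plasma. Both control arrays lay below both autologous arrays, and the ratio of -0.30 (-0.33 in BN1 and -0.28 in BN2, 95% confidence interval -0.55 to -0.06) did not pass limma (adjusted p = 0.35). The corresponding ratios of *Dusp10* were -0.24 with 5% IH and -0.14 with 10% IH plasma, neither past the criterion. Without the 5% IH array of BN1 the ratio for 5% IH plasma was -0.29 and met it. That for 10% IH plasma was -0.29 without the 10% IH array of BN2 and -0.00137 without that of BN1, and met it in neither case.

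With 5% IH plasma 2 of 7 phosphatases met the criterion against autologous plasma, *Dusp6* and *Dusp2*, beside 10.6% of all genes, and limma called *Dusp6*, beside 2.75% of all genes. The count was the same with 10% IH plasma for the criterion, again *Dusp6* and *Dusp2*, beside 9.4% of all genes, and for limma, beside 1.81%. The 3 comparisons share the autologous arrays. *Dusp2*, the nuclear phosphatase of activated lymphocytes and myeloid cells, stood at 9.38 in BN1 and 9.66 in BN2 with autologous plasma, at 9.70 in both donors with control plasma, at 9.92 and 9.88 with 5% IH and at 9.98 and 9.78 with 10% IH plasma. The autologous array of BN1 was the lowest of the 8, and both IH plasmas lay above both control arrays. The log2 ratio to autologous plasma was 0.38 with 5% IH plasma (0.54 in BN1 and 0.22 in BN2, limma adjusted p = 0.215) and 0.36 with 10% IH plasma (0.60 and 0.12, limma adjusted p = 0.32). With control plasma it was 0.18 (0.33 and 0.03), short of the criterion. The calls of *Dusp2* rested on single arrays. Without the autologous array of BN1 the ratios were 0.24 and 0.22 for 5% and 10% IH plasma, and without the 10% IH array of BN1 the latter was 0.26. Without the autologous array of BN2 the ratio of control plasma was 0.32 and met the criterion.

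The remaining nuclear phosphatases did not meet the criterion against autologous plasma with any of the 3 plasmas. *Dusp1*, the glucocorticoid- and stress-induced member, read 7.73 and 8.01 with autologous plasma, 7.88 and 7.99 with control, 7.94 and 8.11 with 5% IH and 8.08 and 8.05 with 10% IH plasma (probe set 1368146_at). The donors differed by up to 0.28 within a plasma, and the ratios to autologous plasma were 0.07, 0.16 and 0.20. *Dusp5*, an ERK-specific nuclear phosphatase, read 6.50 and 6.45 with autologous plasma, 6.50 and 6.71 with control, 6.59 and 6.78 with 5% IH and 6.52 and 6.78 with 10% IH plasma. Its ratios of 0.13, 0.21 and 0.17 rested on BN2 more than on BN1, in which they were -0.00, 0.09 and 0.01. *Dusp4* had the narrowest range of the set, from 5.06 to 5.24 over the 8 arrays, with group means within 0.05 of each other. Leaving out 1 array brought *Dusp5* past the criterion for 5% IH plasma without the 5% IH array of BN1 (0.30) and for 10% IH plasma without the 10% IH array of BN1 (0.30). *Dusp1* passed it for 5% IH (0.30) and 10% IH plasma (0.34) without the autologous array of BN2.

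Each IH plasma was also compared with normoxic control plasma, to ask whether neonatal hypoxia left a difference in adult plasma. With 5% IH plasma 0 of 7 phosphatases met the criterion, beside 2.5% of all genes. By limma 0 of 7 were called, beside 0% of all genes. An unadjusted limma p under 0.05 was found for 0 of 7, beside 276 of the 14217 genes. The median log2 ratio of the phosphatases was 0.07, against -0.000905 for all genes. *Dusp2* had the largest ratio, 0.20 (0.22 in BN1 and 0.19 in BN2, SE 0.116), and its 95% confidence interval of -0.06 to 0.47 included both no difference and one past the criterion. The other ratios ran from -0.02 for *Dusp7* to 0.09 for *Dusp1*. That of *Dusp6* was 0.05, with 0.03 in BN1 and 0.07 in BN2. Its interval of -0.36 to 0.45 included a 1.2-fold change in either direction. The fit behind this interval has no term for the donor. It counts the donor difference, in which BN2 read higher with both plasmas, as spread.

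With 10% IH plasma 1 of 7 phosphatases met the criterion against control, *Dusp7*, beside 4.3% of all genes. By limma 0 of 7 were called, beside 0% of all genes. An unadjusted limma p under 0.05 was found for 1 of 7, beside 586 of the 14217 genes. *Dusp7*, an ERK phosphatase of the same subgroup as *Dusp6*, stood at 8.05 and 8.01 with control, 8.00 and 8.03 with 5% IH, 7.60 and 7.91 with 10% IH and 8.07 and 7.88 with autologous plasma. Both 10% IH arrays lay below both control arrays, but that of BN2 was higher than the autologous array of the same donor. The ratio of 10% IH to control plasma was -0.28, or 1.21-fold lower, with -0.45 in BN1 and -0.10 in BN2 (SE 0.118, 95% confidence interval -0.55 to -0.01, limma adjusted p = 0.92). Without the 10% IH array of BN1 it was -0.12, and without the control array of BN1 -0.26, both short of the criterion, and without the 10% IH array of BN2 it was -0.43. Against autologous plasma the ratio of *Dusp7* with 10% IH plasma was -0.22 (-0.46 in BN1 and 0.03 in BN2) and short of the criterion. It met it without the 10% IH array of BN2 (-0.37) or the autologous array of BN2 (-0.31), and was -0.06 without the 10% IH array of BN1.

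The other phosphatases had ratios of 10% IH to control plasma of -0.18 to 0.18. The largest upward ratios were those of *Dusp2* (0.18, with 0.27 in BN1 and 0.08 in BN2), *Dusp10* (0.16, with 0.03 and 0.29) and *Dusp1* (0.13, with 0.20 and 0.06). The ratio of *Dusp6* was -0.18 (-0.05 and -0.30, 95% confidence interval -0.58 to 0.23). Leaving out 1 array took 3 of these values past the criterion: *Dusp2* to 0.28 without the 10% IH array of BN2, *Dusp10* to 0.30 without that of BN1, and *Dusp6* to -0.36 without the control array of BN1. The second, dim probe set of *Dusp1* (1368147_at) read 3.99 and 4.22 with control, 4.29 and 4.05 with 5% IH, 4.59 and 4.16 with 10% IH and 3.91 and 4.39 with autologous plasma. Its ratio of 10% IH to control, 0.27, met the criterion, but it came from BN1 (0.60) and not from BN2 (-0.06), and the brighter probe set did not pass.

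Between 5% and 10% IH plasma 0 of 7 phosphatases met the criterion, beside 4.48% of all genes. By limma 0 of 7 were called, beside 0% of all genes. An unadjusted limma p under 0.05 was found for 0 of 7, beside 576 of the 14217 genes. *Dusp7* was closest, with a ratio of 5% to 10% IH plasma of 0.26 (0.40 in BN1 and 0.12 in BN2, 95% confidence interval -0.01 to 0.53). *Dusp6* had a ratio of 0.22 (0.08 and 0.37, interval -0.18 to 0.63), and the other 5 lay between -0.09 and 0.05. Without the 5% IH array of BN1 both met the criterion (0.43 for *Dusp6* and 0.28 for *Dusp7*), as they did without the 10% IH array of BN2 (0.28 and 0.42).

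**Figure D3:**
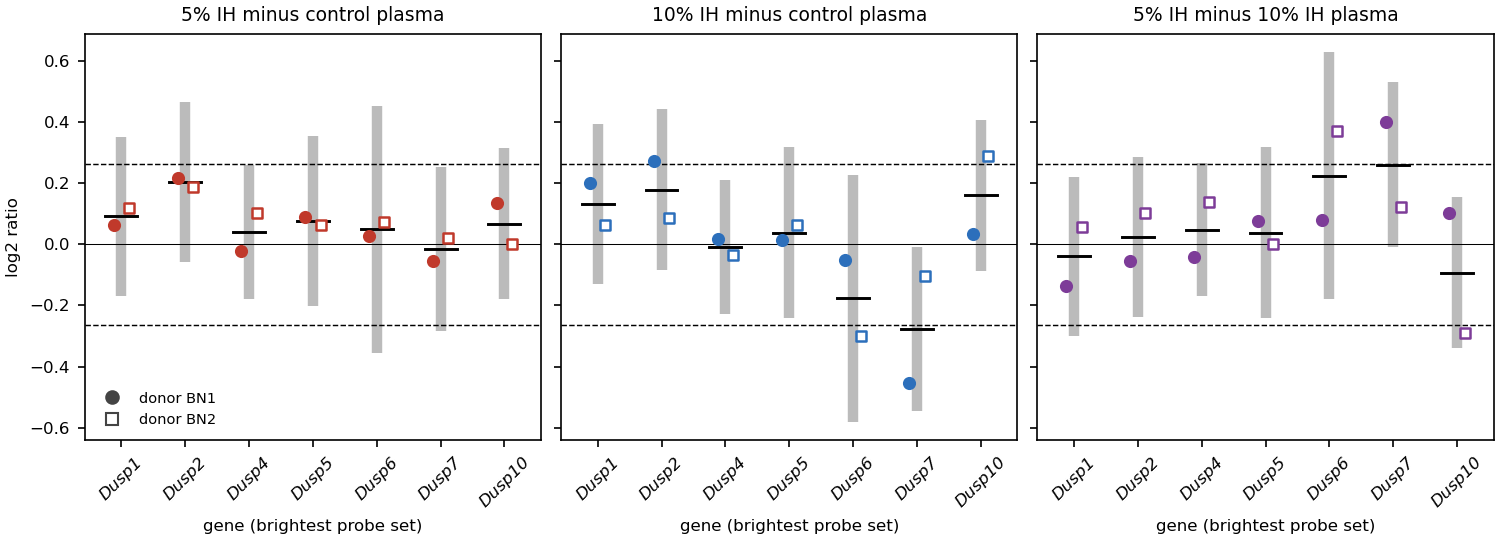
Log2 ratios (y axis) between Sprague-Dawley plasmas for the brightest probe set of each phosphatase (x axis). Points are ratios within BN1 (filled circles) and BN2 (open squares), black bars the ratio of group means, grey bars its 95% confidence interval by limma and dashed lines the 1.2-fold threshold in either direction. *Dusp7* at -0.28 in 10% IH against control is the single black bar beyond a dashed line, and the grey bars of 6 of the 7 genes in that comparison cross 0.

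Lists of genes around the phosphatases were read in the same way. Other genes of the typical MAP kinase phosphatase family, *Dusp8*, *Dusp9* and *Styxl1*, were measured. Of these, 0 of 3 met the criterion in any of the 6 comparisons, beside 2.5% to 10.6% of all genes. *Dusp8* (2.81 to 3.16 over the 8 arrays) and *Dusp9* (3.15 to 3.39) were read on dim probe sets, so their lack of a call says little. Of the atypical dual-specificity phosphatases, small enzymes without a kinase-binding domain, 10 of 14 were measured. Between Sprague-Dawley plasmas 0 of 10 met the criterion, beside 2.5% to 4.48% of all genes. Against autologous plasma *Dusp18* alone met it, with 0.43 for control, 0.46 for 5% IH and 0.41 for 10% IH, beside 9.4% to 10.6% of all genes. Without the 5% IH or the 10% IH array of BN2 the *Dusp18* ratio for that plasma was 0.28, and the call for 10% IH plasma was lost.

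Of the MAP kinases 10 were measured and are reported here. From control to 5% IH plasma 0 of 10 met the criterion, beside 2.5% of all genes. From control to 10% IH plasma 1 of 10 met it, beside 4.3% of all genes, *Mapk15*, which was higher with 10% IH (0.27). Between 5% and 10% IH plasma 1 of 10 met it, beside 4.48% of all genes, *Mapk12*, which was higher with 5% IH (0.27). *Mapk12* was read on a dim probe set (3.52 to 4.04 over the arrays), and *Mapk15* on one of 4.79 to 5.15. The *Mapk15* call was lost without the 10% IH array of BN2 (0.19) or the control array of BN1 (0.26). That of *Mapk12* was lost without the 5% IH array of BN2 (0.11) or the 10% IH array of BN1 (0.17), and its ratio was 0.43 without the 5% IH array of BN1. Against autologous plasma 0 of 10 met the criterion with control and 10% IH plasma, beside 10.3% and 9.4% of all genes. With 5% IH plasma 1 of 10 met it, beside 10.6% of all genes. *Mapk13*, a p38 kinase read on a dim probe set (3.93 to 4.45), was lower than with autologous plasma (-0.33). It fell short of the criterion without the 5% IH array of BN1 (-0.21) or the autologous array of BN2 (-0.26). Of the kinases that activate them 12 of 18 were measured, and 2 were higher than with autologous plasma in each comparison by the criterion and by limma. The shares of all genes were 10.3%, 10.6% and 9.4% by the criterion and 2.44%, 2.75% and 1.81% by limma for control, 5% IH and 10% IH plasma. *Map3k8*, which relays Toll-like receptor signals to ERK, differed by 0.70, 0.84 and 0.60 for control, 5% IH and 10% IH plasma (limma adjusted p = 0.0146, 0.00439 and 0.0394). *Map2k1*, the ERK kinase MEK1, differed by 0.48, 0.59 and 0.51 (limma adjusted p = 0.0245, 0.00683 and 0.0203). Both kept the criterion with each array left out. Their limma calls for control plasma were lost without either control array or the autologous array of BN1, with the highest adjusted p without the control array of BN2 (0.155 for *Map3k8* and 0.194 for *Map2k1*), and that of *Map2k1* was also lost without the autologous array of BN2 (limma adjusted p = 0.0842). For 5% IH plasma they were lost without the 5% IH array of BN2 (limma adjusted p = 0.0539 and 0.0839). For 10% IH plasma they were lost without either 10% IH array or the autologous array of BN1 (limma adjusted p up to 0.188 and 0.134), and that of *Map2k1* without the autologous array of BN2 (limma adjusted p = 0.0699). None of the 12 met the criterion between Sprague-Dawley plasmas, beside 2.5% to 4.48% of all genes.

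Of the other brakes on the cascade, such as Sprouty proteins and Ras GTPase-activating proteins, 14 of 16 were measured. *Rasa2*, a Ras GTPase-activating protein, was higher by 0.48 with 10% IH than with control plasma (0.51 in BN1 and 0.46 in BN2), and lower with control than with autologous plasma by 0.76 (limma adjusted p = 0.0315). That limma call was lost without the control array of BN1 (adjusted p = 0.176) or BN2 (adjusted p = 0.249) or the autologous array of BN2 (adjusted p = 0.109). *Rasa2* was the 1 gene of 14 past the criterion from control to 10% IH plasma, beside 4.3% of all genes. From control to 5% IH plasma 0 of 14 passed, beside 2.5% of all genes. From autologous to control plasma 1 of 14 was higher and 2 were lower by the criterion, beside 10.3% of all genes. Besides *Rasa2* these were *Spry1* (0.27, with -0.07 in BN1 and 0.60 in BN2) and *Spry2* (-0.27), which encode Sprouty proteins. Both Sprouty calls were lost without the control array of BN2 (0.00081 and -0.24) or the autologous array of BN2 (0.20 and -0.26), and *Spry1* was 0.54 without the control array of BN1. Of the MAP kinase-activated kinases and mRNA decay factors 12 of 13 were measured, and 0 of 12 passed from control to 5% IH plasma, beside 2.5% of all genes. From control to 10% IH plasma 1 of 12 was higher and 1 lower by the criterion, beside 4.3% of all genes, and limma called none. *Zfp36l2*, which promotes decay of AU-rich mRNAs, was higher by 0.41 (0.42 and 0.41). *Elavl1*, which stabilizes them, had a ratio of -0.34, of which BN1 gave -0.66 and BN2 -0.02. That of *Elavl1* was -0.12 without the 10% IH array of BN1 and -0.24 without the control array of BN1, both short of the criterion, and -0.56 without the 10% IH array of BN2. From autologous to control plasma 1 of 12 was higher and 2 were lower by the criterion, beside 10.3% of all genes. *Zfp36l2* was lower by 0.55 and *Rps6ka5*, a kinase of histones and CREB downstream of ERK and p38, by 0.35 (-0.35 in BN1 and -0.36 in BN2). *Mapkapk3*, a kinase downstream of p38, was higher by 0.28, though by 0.22 without the control array of BN2 and by 0.21 without the autologous array of BN2, both short of the criterion.

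Among ERK-induced early genes, the targets through which ERK activity is commonly read, all 13 were measured. From autologous to control plasma 8 of 13 rose and 0 fell by the criterion, beside 10.3% of all genes called, with 3 called by limma, and the list median was 0.29 against -0.00746 for all genes. *Ier3* rose by 3.61 (limma adjusted p = 2.52e-05), *Fos* by 1.34 (limma adjusted p = 0.00102), *Nr4a1* by 0.72 (limma adjusted p = 0.0324) and *Myc* by 0.45 (limma adjusted p = 0.0562). The limma call of *Nr4a1* was lost without the control array of BN1 (adjusted p = 0.106) or BN2 (adjusted p = 0.293) or the autologous array of BN1 (adjusted p = 0.158). With 5% IH plasma 8 rose and 0 fell against autologous plasma, beside 10.6% of all genes, and with 10% IH plasma 4 rose and 1 fell, beside 9.4%. All 5 measured monocyte markers rose in the same comparisons, with a median of 2.45 from autologous to control plasma, and their part in the rise of the early genes was not tested. From control to 5% IH plasma 0 of 13 passed, beside 2.5% of all genes. From control to 10% IH plasma 2 fell, beside 4.3% of all genes, *Ier2* by 0.37 and *Jun* by 0.32. The *Jun* value was -0.19 without the 10% IH array of BN1.

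Glucocorticoid-induced genes, of which 6 of 7 were measured, were read because glucocorticoids also induce *Dusp1*. From control to 10% IH plasma 4 of 6 rose by the criterion and 0 fell, beside 4.3% of all genes called: *Rasd1* by 1.54, *Fkbp5* by 0.64, *Tsc22d3* by 0.50 and *Klf9* by 0.46, each in both donors and with each array left out. The brightest *Dusp1* probe set had a ratio of 0.13 there. From control to 5% IH plasma 0 of 6 passed, beside 2.5% of all genes. From autologous to control plasma 5 of 6 fell, beside 10.3% of all genes called, *Rasd1* by 2.27, *Fkbp5* by 1.15, *Tsc22d3* by 0.70 and *Klf9* by 0.53. *Fkbp5* was -0.68 without the autologous array of BN2.

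Inflammatory transcripts whose output p38 sustains, all 10 measured, include genes that the study itself picked from these arrays, so their direction is not independent evidence. From control to 5% IH plasma 8 of 10 rose and 0 fell, beside 2.5% of all genes called, *Cxcl1* by 1.32, *Il1a* by 1.22, *Ptgs2* by 1.17 and *Il1b* by 0.98, and the list median of 0.78 stood beside 0.07 for the phosphatases. From control to 10% IH plasma 4 rose and 1 fell, beside 4.3% of all genes, led by *Cxcl1* (0.75) and *Cxcl2* (0.54, and 0.32 without the 10% IH array of BN2 or the control array of BN1). Of the 15 genes of these lists past the criterion in that comparison, 9 stayed past it with each array left out, against 8 of 8 for 5% IH and control plasma. From autologous to control plasma 23 of 30 stayed past the criterion, and of 14 called by limma 7 stayed called. From control to 5% IH plasma 2 of 5 monocyte markers also rose by the criterion, beside 2.5% of all genes called. These were *Cd14* (0.40) and *Itgam* (0.28), while *Csf1r* (0.06), *Cd68* (0.02) and *Lyz2* (0.13) did not pass. *Itgam* lost its call without the 5% IH array of BN2 (0.10) or the control array of BN1 (0.16), and was 0.46 without the 5% IH array of BN1. The monocyte sum was 3486 and 4106 against 2981 and 3573 with control plasma. The part of monocyte markers in the inflammatory list was not tested.

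**Figure D4:**
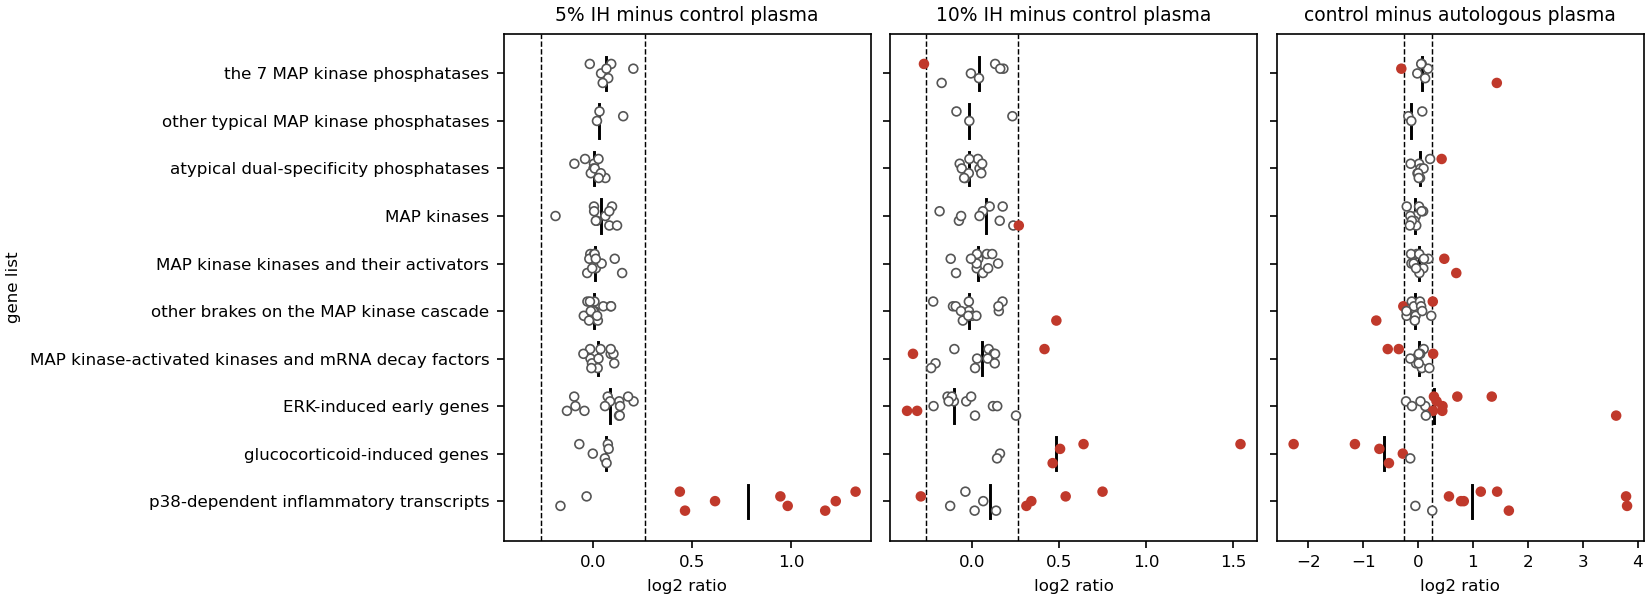
Log2 ratio of group means (x axis) of each measured gene in the phosphatases and the lists of pathway genes (y axis), for 5% IH minus control, 10% IH minus control and control minus autologous plasma. Red points met the study's criterion, open points did not, black bars are list medians and dashed lines mark 1.2-fold in either direction. The phosphatases lie near 0 in the first panel, where 8 of 10 inflammatory transcripts are red, and *Dusp6* is the red point at 1.43 in the last.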

How the data were processed

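Transcripts were measured on 8 Affymetrix rat expression arrays. Per the methods, the authors used Expression Console with Robust Multichip Analysis, which subtracts background, gives all arrays 1 distribution and combines probes, and deposited the resulting log2 values. This compresses differences of dim probe sets. Partek stands in the submitters' notes without a stated role. No further scaling was applied. Of 31042 probe sets, 20826 carried 1 gene symbol, 436 several and 9780 none, and positions of the probe sets were not used here.

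The groups are the 4 plasmas, and the replicate number is that of the donor of the cells. The Rank Product was coded in Python 3.11.15 (numpy 2.4.6, pandas 2.3.3) with all 4 between-array ratios of a comparison and 100 permutations within arrays, a 1-sided p in either direction. The 4 ratios share arrays, while the permutations treat them as independent. For limma (version 3.58.1, R 4.3.3) all 8 arrays entered 1 fit of 4 groups with no term for the donor, and p values were adjusted by Benjamini-Hochberg across the whole array. Standard errors, 95% confidence intervals and unadjusted p values are limma's, and measure the spread between 2 donors. The number of arrays limits the precision. The steps were also run on simulated data with independent noise of the same spread for every probe set and no donor effect. That setting differs from the paired arrays here, so it does not show how the steps perform on them.

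Cells of the same donor were used with each plasma, which pairs the arrays. The departures of an array from its group mean were correlated, between arrays of the same donor, at 0.24, 0.059 and 0.165 for control with 5% IH, control with 10% IH and 5% with 10% IH, and at -0.00387, -0.0833 and -0.171 for autologous with control, 5% IH and 10% IH.

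The members and gene lists were chosen with earlier results of these data known. Every member and all its probe sets are named, and from each list at most 4 genes per comparison, those past the criterion with the largest absolute log2 ratio. For the 2 members with the widest range of group means, the 5 genes with the highest Pearson r are named. Marker sums are of linear values. Promoters are those of RefSeq on GRCr8. The alternatives were a 2-sided p, the fold threshold alone or in both donors, the donor block, a filter at the 40th percentile of mean level, median centring, quantile normalization again, averaging the probe sets of each gene, an intensity trend, the compared arrays alone and each array left out.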

Additional observations from a re-analysis of the deposited data

How the results depend on the processing

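With 2 arrays per plasma, single arrays decided most calls near the threshold. From control to 10% IH plasma the count of phosphatases past the criterion, 1 in the main setting, was 0 with the threshold asked for in both donors, and 1 to 2 with each array left out. Between 5% and 10% IH plasma it was 0, but 1 (*Dusp7*) with arrays centred on their medians and 0 to 2 with each array left out. From autologous to control plasma it was 2, and 1 without the dimmest 40% of probe sets, which leaves out *Dusp10*. From autologous to 5% IH and to 10% IH plasma it was 2, and 1 with the threshold asked for in both donors, which leaves *Dusp6*, and 1 to 4 with each array left out for both. The count by limma was 1 in each comparison with autologous plasma and ran from 0 to 1 with each array left out for control and for 10% IH plasma. With the donor as a replicate block the *Dusp6* adjusted p values were 0.000391, 0.000263 and 0.000844 for control, 5% IH and 10% IH against autologous plasma, and the block changed no count by limma. Over all alternatives the *Dusp6* log2 ratios stayed within 1.06 to 1.62, 1.14 to 1.69 and 0.97 to 1.44, with limma adjusted p values of 0.000391 to 0.0510, 0.000263 to 0.0254 and 0.000844 to 0.0736. No result changed its direction where it was called. The cause of these changes was not tested, beyond the fewer arrays or probe sets that some settings leave by construction.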
